A study of Mus musculus with 6 samples.

Results

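The genes described here move lactate and glucose across cell membranes or interconvert lactate and pyruvate. They are Slc16a1, Slc16a3 and Slc16a7, which encode the monocarboxylate transporters MCT1, MCT4 and MCT2, the transporter chaperone genes Bsg and Emb, the lactate dehydrogenase genes Ldha and Ldhb, and the glucose transporter genes Slc2a1 (GLUT1) and Slc2a3 (GLUT3). They were taken by symbol from a table of 55367 gene symbols, and all 9 were found. The symbols were chosen by function, but with the FPKM values of these same libraries, Run against NR, already in view, so the differences between groups given here are descriptions and carry no p-value of their own. The libraries were made by Smart-seq2, which copies polyadenylated RNA along its full length, from tdTomato-positive cells sorted from the dentate gyrus of the hippocampus, which the labels call neurons. The mice were TRAP2;Ai9, in which a tamoxifen-inducible Cre under control of Fos switches on tdTomato, so any cell that activates Fos while the drug is present can be labelled. All mice belonged to the LH+ groups, that is they had passed through learned helplessness, a stress procedure used in depression research. The 3 NR libraries came from mice without running and the 3 Run libraries from mice with 28 days of voluntary running. The sources used here give neither age and sex nor the numbers of cells and animals behind a library, so the spread between libraries may be technical.

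Brain tissue takes glucose from blood mainly through GLUT1 in the endothelium of its vessels, and GLUT1 also serves astrocytes, while GLUT3 is the main glucose transporter of neurons. Lactate crosses membranes together with a proton through the monocarboxylate transporters. MCT1 is known from endothelium, oligodendrocytes and astrocytes, MCT4 from astrocytes and MCT2 from neurons, an arrangement on which the idea of a lactate shuttle between glia and neurons rests. MCT1 and MCT4 reach the cell surface bound to basigin, the product of Bsg, and MCT2 bound mainly to embigin, the product of Emb. Lactate dehydrogenase is a tetramer of A and B subunits, of which the A subunit, encoded by Ldha, favours the making of lactate and the B subunit, encoded by Ldhb, its conversion to pyruvate.

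Values are FPKM, fragments per kilobase of transcript scaled by the mapped fragments of the library, which can be compared between genes because they are scaled by transcript length. Between 5426 and 7355 genes per library reached an FPKM of 1. Only 1751 genes reached that level in all 6. Transcripts known from other cells accompanied those of neurons. Astrocyte markers summed to 1669 to 7055 FPKM over 12 genes, of which 10 reached FPKM 1 in all 6 libraries. Pan-neuronal markers summed to 291 FPKM in NR replicate 1 and to 627 to 1123 in the other libraries, and only 3 of 10 reached FPKM 1 in all 6. Of the 10 granule neuron markers, those of the principal cells of the dentate gyrus, none did. Summed markers ranged from 183 to 1545 FPKM for oligodendrocytes, 55.0 to 927 for microglia, 317 to 1476 for mural cells and 0 to 96.3 for choroid plexus, where the last came from Ttr alone. In such bulk libraries, fewer cells of a type and less RNA per cell cannot be told apart. Haemoglobin genes and Alas2, markers of red blood cells, which carry MCT1 and basigin, were listed at 0 in all 6 libraries.

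The plasma membrane carriers of lactate had few values above 0. Slc16a7 (chromosome 10, 125219270 to 125389465), the gene of the neuronal transporter MCT2, was listed at 0 in all 6 libraries, and so was Slc16a3 (chromosome 11, 120948480 to 120960868), the gene of MCT4. Since a 0 in such a table may also be a failed estimate, neither gene is called absent. Slc16a1 (chromosome 3, 104638668 to 104658462), the gene of MCT1, had 0, 14.2 and 0 FPKM without running (replicates 1, 2 and 3, the order used throughout) and 17.8, 0.00432 and 0 with running. It was thus present at more than FPKM 1 in 1 library of each group and at or near 0 in the other 4. Of the sequence stretches of 50 bases in annotated transcripts, none of Slc16a1 or Slc16a3 and 1.35% of Slc16a7 occurred in a transcript of another gene. The libraries with Slc16a1 above FPKM 1, NR replicate 2 and Run replicate 1, had summed oligodendrocyte markers of 1477 and 183 FPKM. The other libraries had 257 and 1545 (NR replicates 1 and 3) and 622 and 998 (Run replicates 2 and 3). The part of these cells in the Slc16a1 values was not tested.

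The chaperone genes stood at opposite ends of the scale. Bsg (chromosome 10, 79704491 to 79711969) had 1846, 1844 and 1078 FPKM without running and 1097, 826 and 979 with running. It ranked between place 25 and place 53 of all symbols in every library, far above any transporter it is known to escort. NR replicates 1 and 2 held the highest values, and NR replicate 3 lay just below Run replicate 1, so the groups overlapped. Emb (chromosome 13, 117208536 to 117274415) had 0.778, 0.928 and 0.591 FPKM without running and 0, 0.160 and 1.14 with running. Emb therefore stayed near or below 1 in every library. It was the exception among the low genes, because its values were small in 5 libraries rather than 0 in most and much higher in the rest. Part of its sequence is shared, with 14.2% of its stretches of 50 bases found in other genes. Among them are the overlapping gene Gm17509, listed at 0 in every library, and Rnf7, which holds 4.68% of the stretches. Rnf7 had 89.1, 125 and 59.1 FPKM without running and 0.142, 19.5 and 174 with running, which ordered the libraries as Emb did. The part of shared reads in the Emb values was not tested.

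**Figure D1:**
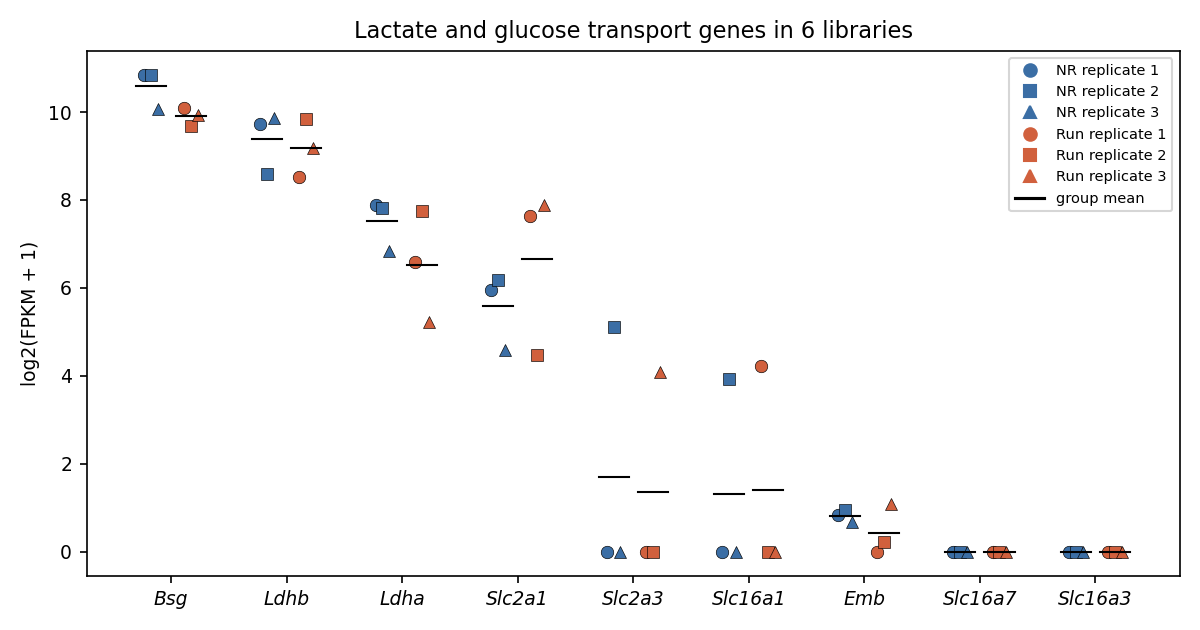
Level of each gene as log2(FPKM + 1), with 1 point per library (blue NR, orange Run, symbol shape by replicate number) and a line at each group mean. Bsg, Ldhb, Ldha and Slc2a1 were above 4 on this scale in every library, while Slc2a3 and Slc16a1 were high in 2 libraries each and Slc16a7 and Slc16a3 were at 0 in all 6.

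Both lactate dehydrogenase genes were well represented, with Ldhb the higher of the pair in 6 of 6 libraries. Ldhb (chromosome 6, 142490249 to 142507957) had 841, 387 and 934 FPKM without running and 367, 912 and 578 with running. The low libraries, NR replicate 2 and Run replicate 1, came from different groups, and the ranges of the groups nearly coincided. Ldha (chromosome 7, 46841475 to 46855627) had 237, 225 and 114 FPKM without running and 95.0, 213 and 36.1 with running. Run replicate 3 had the lowest value and Run replicate 2 one close to the highest NR libraries, so the groups overlapped here too. The level of Ldhb was 1.72 to 16.0 times that of Ldha, with the smallest ratio in NR replicate 2 and the largest in Run replicate 3.

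Expressed as a share of both genes, Ldha made up 22.0%, 36.7% and 10.9% of the lactate dehydrogenase FPKM without running and 20.6%, 19.0% and 5.89% with running. The means were 23.2% ± 12.97 without running and 15.1% ± 8.06 with running (SD, n = 3 each), a difference of -8.05 percentage points that is smaller than the SD of the NR libraries. Without NR replicate 2 the difference was -1.29 points and without NR replicate 3 it was -14.2 points. The sum of both genes was 1078, 612 and 1048 FPKM without running and 462, 1125 and 614 with running, and again no group lay above the other.

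**Figure D2:**
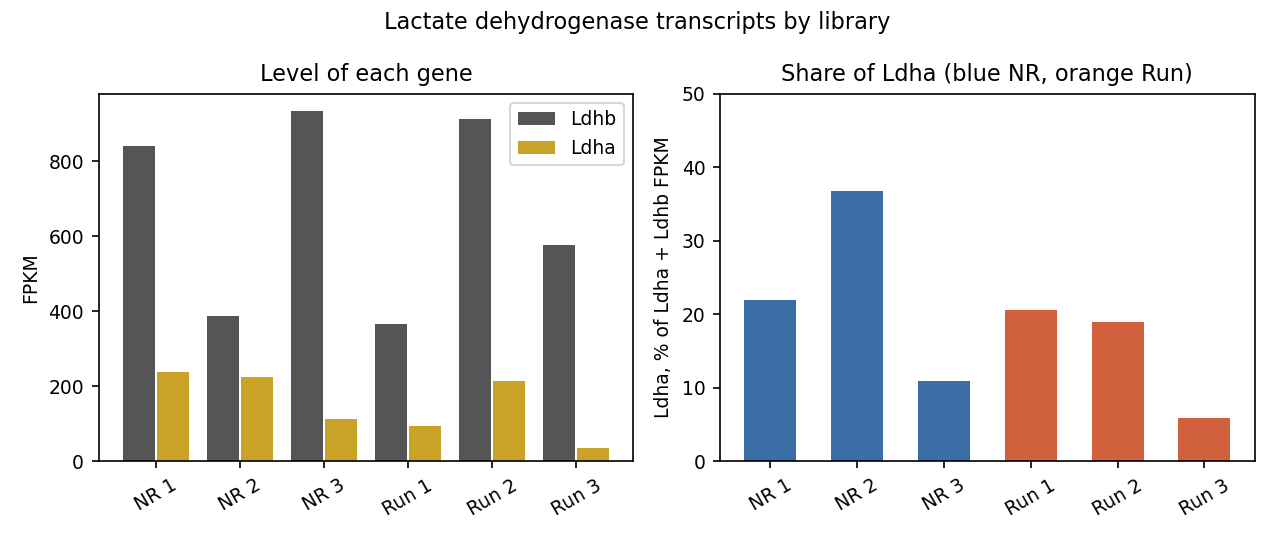
Left, FPKM of Ldhb (grey bars) and Ldha (yellow bars) in each library; right, Ldha as a percentage of the summed FPKM of Ldha and Ldhb (blue NR, orange Run). Ldhb was above Ldha in all 6 libraries, and the Ldha share ran from 5.89% in Run replicate 3 to 36.7% in NR replicate 2.

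Pseudogenes set a limit on these values. The processed pseudogene Ldhb-ps, annotated as Gm5514 in GENCODE, holds 21.0% of the 50-base stretches of Ldhb, and it followed its parent gene at 14.3, 6.36 and 16.1 FPKM without running and 7.64, 15.3 and 8.03 with running. Ldhb was 48.0 to 71.9 times as high as this pseudogene in the 6 libraries. For Ldha, 9.26% of the stretches recurred elsewhere, and the 5 genes sharing most of them were processed pseudogenes with at most 0.939 FPKM in any library. The sources used here do not say how reads shared by such copies were assigned.

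The region before a RefSeq start is shown for the lactate dehydrogenase pair and for Slc2a1, since these are the enzyme and glucose transporter genes that reached FPKM 1 in every library. Ldha and Slc2a1 are textbook targets of the hypoxia-inducible factors, whose core recognition motif has ACGTG among its forms. The 250 bases before the RefSeq start are given 5′ to 3′ on the strand of the gene (build GRCm38.p6), with matches to ACGTG or its reverse complement CACGT in capitals. The Ldha sequence is that of chr7:46845554-46845803 on the plus strand, the Slc2a1 sequence that of chr4:119108495-119108744 on the plus strand and the Ldhb sequence that of chr6:142507958-142508207 on the minus strand. In GENCODE the Ldha gene starts at 46841475, so its window lies inside the gene span given above. The Slc2a1 window ends past the GENCODE start of 119108711.
Ldha: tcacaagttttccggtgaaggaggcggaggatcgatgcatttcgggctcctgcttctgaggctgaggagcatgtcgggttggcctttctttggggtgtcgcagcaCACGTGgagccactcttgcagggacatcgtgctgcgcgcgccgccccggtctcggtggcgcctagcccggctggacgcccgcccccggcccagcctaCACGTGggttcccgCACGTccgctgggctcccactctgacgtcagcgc
Slc2a1: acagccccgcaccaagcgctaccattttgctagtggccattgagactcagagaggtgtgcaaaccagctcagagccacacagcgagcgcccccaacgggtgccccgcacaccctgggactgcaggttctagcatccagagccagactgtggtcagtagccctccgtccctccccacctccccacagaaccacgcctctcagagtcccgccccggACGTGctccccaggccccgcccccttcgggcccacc
Ldhb: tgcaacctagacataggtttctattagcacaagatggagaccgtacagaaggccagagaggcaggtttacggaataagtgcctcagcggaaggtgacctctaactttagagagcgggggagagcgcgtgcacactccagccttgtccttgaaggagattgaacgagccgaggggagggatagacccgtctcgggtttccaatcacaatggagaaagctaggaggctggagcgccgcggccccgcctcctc

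The Ldha window held the motif at 3 places, 2 of them as the palindrome CACGTG, which matches on both strands and is also the E-box motif. The Slc2a1 window held it at 1 place and the Ldhb window at none, and a second RefSeq start of Ldha had none either. RefSeq windows were matched for 6 of the 9 genes. The Slc16a3 and Slc16a1 windows held ACGTG or CACGT at 2 places and 1 place and the Emb window at none. The Slc16a3 and Emb windows also lie inside the spans given for these genes. Of 32851 windows of this length in the table, 16.6% contained ACGTG or CACGT. Windows of these genes with a match had 66.4% (Slc2a1) to 76.4% (Slc16a1) GC. Those without had 54.4% (second Ldha start) to 56.4% (Ldhb). The 16.6% was not matched for base composition, so no enrichment is read from it. A match describes letters only.

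Of the glucose transporter pair, Slc2a1 had the higher value in every library. Slc2a1 (chromosome 4, 119108711 to 119137983) had 61.3, 72.0 and 23.0 FPKM without running and 198, 21.2 and 235 with running. Run replicates 1 and 3 lay above all NR libraries and Run replicate 2 below all of them, so the Run libraries enclosed the NR range. Slc2a3 (chromosome 6, 122727809 to 122801640), the gene of the neuronal transporter GLUT3, had 0, 33.7 and 0 FPKM without running and 0, 0 and 16.1 with running. It was above 0 in 1 library of each group, and in both of these Slc2a1 was higher. Slc2a1 accounted for 68.1% of the summed FPKM of both genes in NR replicate 2 and for 93.6% in Run replicate 3, and Slc2a3 was listed at 0 in the other 4 libraries.

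Levels of cell type markers are given beside these genes because Slc2a1 and Ldhb are known from several cell types. Endothelial markers (10 genes) summed to 1098, 2434 and 913 FPKM without running and 850.5, 1175 and 1763 with running. The highest endothelial sum was that of NR replicate 2 and the lowest that of Run replicate 1, where Slc2a1 had 72.0 and 198 FPKM. By mean log2(FPKM + 1) of the endothelial markers, NR replicate 2 was again highest (6.13). Run replicate 2, where Slc2a1 had 21.2 FPKM, was then lowest (3.46), beside 3.99 in Run replicate 1. All 10 of these markers reached FPKM 1 in some library and 4 did so in all 6. Astrocyte markers summed to 4077, 3429 and 4392 FPKM without running and 1669, 7055 and 3332 with running. Their highest sum was in Run replicate 2, where Slc2a1 was lowest, and their lowest in Run replicate 1. Ldhb was highest in NR replicates 1 and 3 and Run replicate 2, the 3 libraries with the highest astrocyte sums. These sums rest largely on Clu and Gfap, at 1620 and 987 FPKM in NR replicate 1. By mean log2(FPKM + 1) of the same markers the match did not hold. The highest libraries were then NR replicate 3 (7.48), Run replicate 2 (7.47) and Run replicate 3 (7.02), and NR replicate 1 had 6.91. The part of endothelial and astrocyte content in the Slc2a1 and Ldhb values was not tested.

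**Figure D3:**
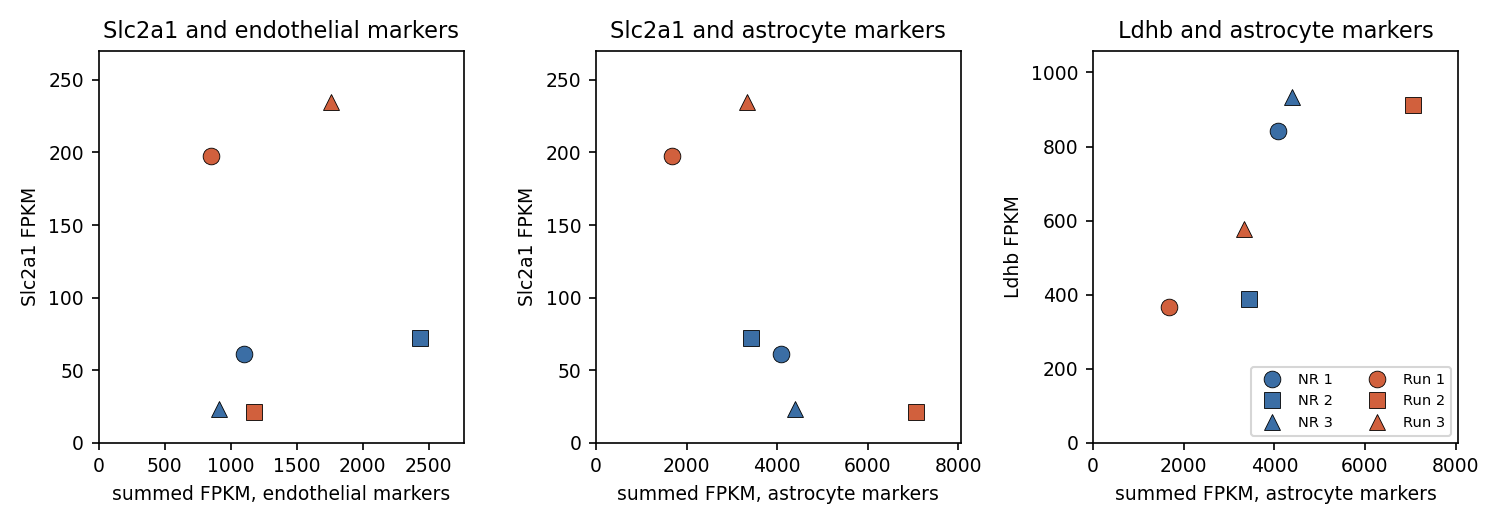
Each point is 1 library (blue NR, orange Run, shape by replicate number), with the FPKM of Slc2a1 or Ldhb on the vertical axis and the summed FPKM of the endothelial or astrocyte markers on the horizontal axis. Slc2a1 was highest in Run replicates 1 and 3 at endothelial sums of 850.5 and 1763, and the 3 libraries with the highest astrocyte sums had the highest Ldhb values. The latter match did not hold by mean log2(FPKM + 1) of the astrocyte markers.

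By mean over the 6 libraries, the order of FPKM levels was Bsg (1279 ± 449, SD), Ldhb (669.6 ± 260), Ldha (153 ± 82.9) and Slc2a1 (102 ± 91.8). Slc2a3, Slc16a1 and Emb followed, each below FPKM 1 in at least 4 libraries, and then the 2 genes listed at 0. Some neighbours in this order did not keep it. Bsg was above Ldhb in 5 of 6 libraries, the exception being Run replicate 2, and Ldha was above Slc2a1 in 4 of 6. Slc2a3 was above Slc16a1 in 2 libraries, below it in 2 and equal in 2, and Slc16a1, although higher than Emb by its mean, was below it in 4 of 6. Ldhb was above Ldha, and Slc2a1 above Slc2a3, in 6 of 6.

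The steadiness of the genes also differed. Between the lowest and the highest library, levels differed 2.23-fold for Bsg, 2.55-fold for Ldhb, 6.56-fold for Ldha and 11.1-fold for Slc2a1. On the log2(FPKM + 1) scale the SD within groups was 0.35 for Bsg, 0.67 for Ldhb, 0.99 for Ldha and 1.48 for Slc2a1. The median of 693 tested genes with a mean of at least 100 FPKM was 0.76. Of those genes, 8.95% had a smaller SD than Bsg and 83.3% a smaller one than Slc2a1. The SDs of Bsg, Ldhb, Ldha and Slc2a1 rose as their mean FPKM fell, so no steadiness apart from level is read from them. Bsg, with a mean of 1279 FPKM, was set beside genes down to 100 FPKM. Slc2a1 lies at the lower edge of this class with its mean of 102 FPKM, and the median SD of the 3635 tested genes with a mean of 10 to 100 FPKM was 2.45, above that of Slc2a1.

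Runners and non-runners were then compared. The question of the design is how running after learned helplessness changes these labelled cells. Genes reaching FPKM 1 in 3 or more libraries were tested with limma on log2(FPKM + 1), and 4 of the 9 genes passed this filter. Slc2a1 had a difference (Run minus NR) of 1.09 ± 1.08 on the log2 scale (SE), Bsg of -0.68 ± 0.28, Ldha of -1.01 ± 0.76 and Ldhb of -0.22 ± 0.48. In FPKM, the group means were 52.1 ± 25.7 without running and 151 ± 114 with running for Slc2a1 (SD, n = 3 each) and 1589.7 ± 443 and 967 ± 136 for Bsg. They were 192 ± 67.7 and 115 ± 90.3 for Ldha and 721 ± 293 and 619 ± 275 for Ldhb. Of the 4 differences in mean FPKM, only that of Bsg was larger than the SDs of both groups.

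None of the 4 genes passed an adjusted p of 0.05 (Benjamini-Hochberg), where 0 of all 6155 tested genes (0.0%) did. In limma, 304 of all tested genes (4.94%) had an unadjusted p under 0.05. The 4 genes were chosen with these values in view, so no such count is given for them. None of the 4 had groups that did not overlap, against 8.95% of all tested genes. The median difference of the 4 was -0.45, beside -0.03 over all tested genes. Single libraries moved these differences. Without Run replicate 2 the Slc2a1 difference was 2.18, and without Run replicate 3, Run replicate 1 or NR replicate 3 it was 0.48, 0.60 or 0.59. The Ldha difference was -0.35 without Run replicate 3 and -1.62 without Run replicate 2. The sign of Ldhb turned when NR replicate 3 (0.02) or Run replicate 1 (0.11) was left out, and its difference was -0.62 without NR replicate 2, -0.55 without Run replicate 2 and -0.06 without NR replicate 1.

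**Figure D4:**
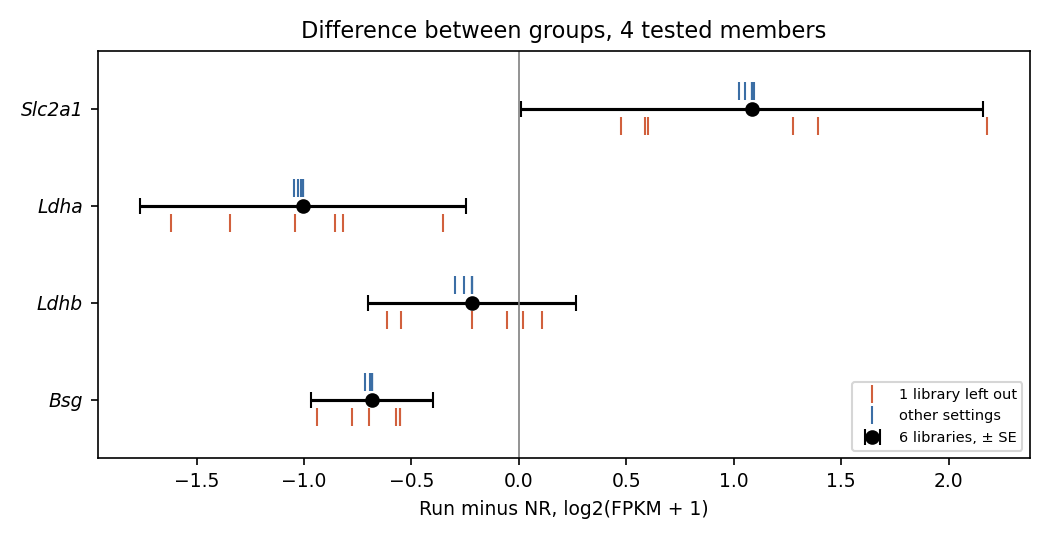
Difference between groups (Run minus NR, log2(FPKM + 1)) for the 4 tested genes, with the value over 6 libraries and its SE in black, the values with 1 library left out in orange and those under other settings in blue. Bsg ran from -0.94 to -0.55 and kept its sign, as did Ldha and Slc2a1, whereas the orange marks of Ldhb fall on both sides of 0.

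The surrounding pathway was followed in lists of other genes. Glycolytic enzymes, which supply the pyruvate that lactate dehydrogenase reduces, were abundant. All 15 reached FPKM 1 in some library and 9 did so in all 6. Aldoa and Aldoc, encoding aldolases, had 1320 ± 375 and 1816 ± 815 FPKM without running and 957 ± 228 and 1913 ± 662 with running (SD, n = 3 each). Gapdh had 669 ± 68.1 and 643 ± 142. Of 14 tested glycolytic genes, 0 passed the adjusted threshold, while 6 differences were positive and 8 negative, with a median of -0.08.

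Genes for the entry of pyruvate into mitochondria had lower levels. Mpc1, which encodes a subunit of the mitochondrial pyruvate carrier, had 244, 280.5 and 268 FPKM without running and 248, 312 and 139 with running. Its partner Mpc2 had 87.1, 122 and 98.0 without running and 181, 6.66 and 87.9 with running, and Pdhb, of pyruvate dehydrogenase, 0.295, 25.2 and 126 without running and 83.5, 55.1 and 107 with running. Both carrier genes reached FPKM 1 in all 6 libraries. Of 7 tested genes of this list, 0 passed, while 2 differences were positive and 5 negative, with a median of -0.66.

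Of the shuttles that carry reducing equivalents from cytosolic NADH into mitochondria, the malate dehydrogenase gene Mdh1 had 74.0, 77.0 and 162 FPKM without running and 237, 164 and 195 with running. The Mdh1 values of the groups did not overlap, as for 8.95% of all tested genes, although those of NR replicate 3 and Run replicate 2 nearly met. Mdh2, the mitochondrial counterpart, had 205, 264 and 436 without running and 164, 356 and 125 with running, and overlapped. The aminotransferase gene Got1 had 0, 62.3 and 0.0427 without running and 161, 80.7 and 53.1 with running. Of 8 tested genes, 0 passed, with 3 positive and 5 negative differences and a median of -0.63.

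Glycogen is the store from which astrocytes can form lactate. Pygb, the brain glycogen phosphorylase gene, had 82.1, 47.1 and 182 FPKM without running and 96.3, 117 and 76.2 with running and was the only gene of the 16 in this list at FPKM 1 in all 6 libraries. Ugp2, which makes the sugar donor for glycogen synthesis, had 0, 8.12 and 11.7 without running and 18.6, 228 and 99.5 with running, and Phkg1, of phosphorylase kinase, 95.2, 0.000264 and 0.0230 without running and 88.1, 2.13 and 4.47 with running. Of 6 tested genes 0 passed, with 5 positive and 1 negative difference and a median of 0.55.

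Control genes and the lactate receptor were looked at last. Hcar1, which encodes the cell surface receptor for lactate, and Ldhd, the D-lactate dehydrogenase gene, were listed at 0 in all 6 libraries, as was Egln3. Epas1, encoding the hypoxia-inducible factor HIF-2 alpha, had 55.4, 48.8 and 65.9 FPKM without running and 87.9, 51.4 and 79.9 with running, with the groups overlapping. Vhl, whose product marks these factors for degradation, had 26.7, 0.0231 and 24.1 without running and 64.2, 35.3 and 0 with running. Nptn, a close relative of Bsg and Emb that also binds monocarboxylate transporters, had 157, 88.8 and 0 without running and 35.7, 38.3 and 98.4 with running. Of 6 tested genes 0 passed, with 4 positive and 2 negative differences and a median of 0.46.

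**Figure D5:**
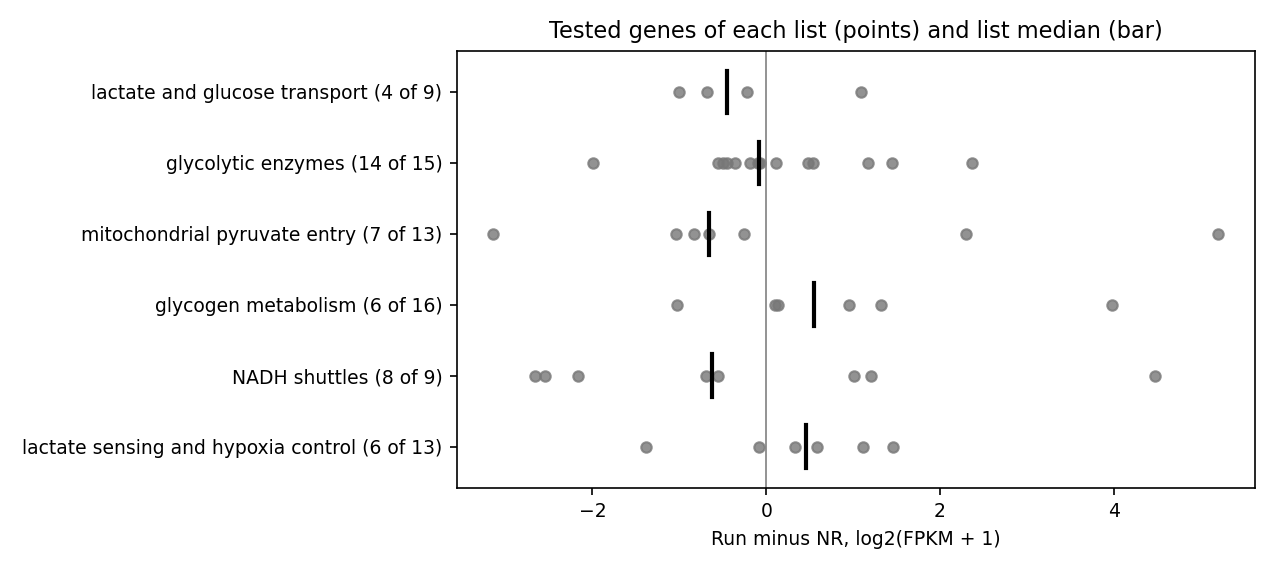
Difference between groups (Run minus NR, log2(FPKM + 1)) of every tested gene (grey points) and the median (black bar) for the 9 genes and 5 pathway lists, with the number tested of the number listed. The medians lie on both sides of 0, and points of most lists spread over several log2 units.

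Relatives of the transporters also had few values above 0. Of 13 further SLC16 and sodium-coupled monocarboxylate carriers, 9 were listed at 0 in every library and none reached FPKM 1 in all 6. Slc16a6 exceeded FPKM 1 only in NR replicate 2 (9.24) and Slc16a13 only in Run replicate 1 (21.9). Of 11 further glucose and hexose carriers, 7 were listed at 0 throughout and none was tested. Slc2a5, a fructose carrier, and Slc2a10 exceeded FPKM 1 only in Run replicate 2 (14.1 and 18.4), and Slc2a13, a carrier of myo-inositol, only in NR replicate 3 (11.3).

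Profiles over the 6 libraries were finally compared with those of the 1751 genes at FPKM 1 in every library, naming for each gene the 2 with the highest Pearson r on the log2(FPKM + 1) scale. With so many genes and 6 points, high values of r arise in any case. Ldhb was most like Dctn6, a dynactin subunit gene (r = 0.99), and Ckb, the brain creatine kinase gene (r = 0.98), which had 2576, 1343 and 2569 FPKM without running and 1429, 2395 and 1924 with running. Ldha was most like the proteasome subunit gene Psma1 (r = 0.98) and the splicing factor gene Srsf3 (r = 0.97), both lowest in Run replicate 3 at 3.39 and 1.37 FPKM. Slc2a1 was most like Tomm6, of the mitochondrial import machinery (r = 0.99), and the pseudogene Rpl3-ps2 (r = 0.99). Bsg was most like the pseudogenes Gm6054 (r = 0.97) and Gm7079 (r = 0.94).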

How the data were processed

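RNA of tdTomato-positive cells was measured in 6 Smart-seq2 libraries, 3 NR and 3 Run, in 1 batch per the labels. The authors deposited 1 table of FPKM values, 1 column for each library. The submitters' processing notes name the tools Trimmomatic 0.39, STAR 2.7.5c, StringTie 2.1.7, DESeq2 and edgeR, and the build mm10. The sources used here do not give their roles, the annotation or the handling of shared reads. Read totals cannot be read from FPKM, so depth is unknown: only 3.77% to 5.22% of the low values of genes with 1 transcript lay within 1% of 1 or 2 steps of the best whole-read step. Low values are therefore uncertain, and no interval is given.

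From these values, limma 3.58.1 in R 4.3.3 compared Run with NR on log2(FPKM + 1) for the 6155 genes reaching FPKM 1 in 3 or more libraries. It used a mean-variance trend, 2-sided tests and Benjamini-Hochberg over all tested genes, with a threshold of 0.05. The fit was also run on simulated data, and the outcome is not reported here. With 3 libraries per group, 0 calls do not show that no gene changed. The log2(FPKM + 1) scale understates changes of low genes. Coordinates are those of GENCODE M21 (GRCm38, the same assembly as mm10). Sequences shown are those before RefSeq starts, which can differ from the GENCODE starts. Shared sequence was counted as stretches of 50 bases occurring in annotated transcripts of other genes. Python 3.11.15 with pandas 2.3.3 and matplotlib 3.10.9 made tables and plots.

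The genes and lists were chosen with earlier results of these data known. All 9 genes are named, with the 3 of highest mean FPKM of each pathway list, marker genes of highest mean and the 2 most alike in profile; others named were chosen after their values were seen. A gene that this rule would name is not reported here. The lists of 7 pathway groups and 9 cell types served for counts, summed and mean levels, median differences and the choice of genes to name. No list was tested as a set. Same-numbered libraries deviated from their group means with correlations of 0.02, 0.00 and 0.02 across genes, so the numbers were not treated as pairs. Alternatives changed the pseudocount, filter, scaling, trend and block, and left out each library.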

Additional observations from a re-analysis of the deposited data

How the results depend on the processing

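Under 12 alternatives, 0 genes passed the adjusted threshold in limma, as in the fit reported, and 251 to 404 genes had an unadjusted p under 0.05. With the replicate number as a block (replicate block) the counts were 0 and 251, and no call changed. The smallest adjusted p ran from 0.0567 without the mean-variance trend to 0.754 with the block. Differences of Bsg ran from -0.94 to -0.55, of Ldha from -1.62 to -0.35 and of Slc2a1 from 0.48 to 2.18 without a change of sign. That of Ldhb ran from -0.62 to 0.11 and changed sign in 2 settings. With 1 library left out, the Ldha share differed between groups by -14.2 to -1.29 percentage points and the Slc2a1 share by -2.14 to 13.8, the negative value being that without NR replicate 2. Depth is unknown, so a value of 0 sets no limit.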

Other observations

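Of the 42 tested genes of the pathway lists, 3 (7.14%) had an unadjusted p under 0.05 in limma, where 304 of all 6155 tested genes (4.94%) did, and they are named here after their values were seen. Pdha1, which encodes the catalytic alpha subunit of pyruvate dehydrogenase, had 0, 3.09 and 8.999 FPKM without running and 135, 97.6 and 152 with running, a log2 difference of 5.21 ± 1.15 (SE) with a limma adjusted p = 0.246. All 3 Run libraries lay above all 3 NR libraries. The groups did not overlap for 8.95% of all tested genes. Pdha1, Ugp2 and Got1 were picked by limma p-values from these same libraries, so nothing is read from such a separation. Ugp2 and Got1 had differences of 3.98 ± 1.48 and 4.47 ± 1.79 and adjusted p-values of 0.898 and 0.965. The Ugp2 values of the groups did not overlap and those of Got1 did. Pdhb, Pdhx, Dld and Dlat are given beside Pdha1, and other genes of the pyruvate entry list are not. Whether they differ from Pdha1 was not tested. Pdhb, the partner of Pdha1, had a log2 difference of 2.30 ± 1.65 (SE). Pdhx, a component of the same complex, had 45.4, 56.7 and 28.0 FPKM without running and 28.7, 0 and 2.79 with running. Dld had at most 0.0191 without running and 27.9, 0.0168 and 61.9 with running. Dlat, from the same list, had 2.16, 0 and 0 without running and 12.5, 0 and 0 with running. Ppargc1a, a regulator of mitochondrial genes, had 78.2, 20.3 and 0.00616 without running and 0.0128, 0 and 0.00579 with running. NR replicate 3 lay below Run replicate 1, so the groups overlapped. Dld, Dlat and Ppargc1a did not pass the filter and were not tested, and Ppargc1a was picked after its values were seen.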
